A study of Drosophila melanogaster with 2 samples.

Results

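The regions bound by eGFP-tagged CG6654, a zinc finger protein, are described here at 10 genes that encode insulator and architectural proteins of Drosophila melanogaster, of 13968 protein-coding genes in the annotation. The genes are BEAF-32, CTCF, Chro, Cp190, Dref, M1BP, Trl, pzg, su(Hw) and mod(mdg4). They were chosen by their protein roles and with earlier results of the same peak lists in view, so their peak signal and the counts of genes with a peak served the choice and are given as a description with no test. A region belongs to a gene when its summit, the base of highest enrichment, lies in the gene or within 2 kb of it. The data are 1 group of 2 biological replicates, numbered 1 and 3. Both came from whole embryos of 0 to 12 h with the sexes mixed, from a transgenic line that stably carries CG6654 with GFP fused to its C-terminal end. Chromatin was precipitated with an antibody against GFP, although the antibody field of the labels names CG6654. Peaks therefore average all cells of the embryo and the whole age range, with the tagged transgene product as the only form observed, and a peak in few cells cannot be told apart from a weak peak in many.

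Insulator proteins bind DNA in the fly genome, many of them close to gene starts, and limit which enhancers act on which promoters. BEAF-32, CTCF and su(Hw) read DNA sequence directly, and Cp190, mod(mdg4) and Chro are brought to those sites through protein contacts. Dref, M1BP and Trl bind promoter elements of housekeeping and regulated genes and are often found at the borders of chromosomal domains.

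Per the annotation, 9 of the 10 genes had a summit of the IDR set in the gene or within 2 kb, where 22.9% of protein-coding genes had one. The IDR set holds the 2962 peaks that the authors kept at a threshold on IDR, a measure of agreement between ranked lists. A peak of this set need not have a region in each replicate, as 1 of mod(mdg4) below had none in replicate 1. At 8 of the 10 genes an IDR summit lay within 500 bp of a start of the gene, where 10.9% of protein-coding genes had one. The exceptions were su(Hw), with no IDR summit at all, and mod(mdg4), whose IDR summits were far from its own start. Since the genes were chosen with these peaks known, the difference from the background is not evidence for a preference. The members had a median length of 4173 bp, and protein-coding genes had one of 2164 bp, which 8 of the 10 members exceeded. The part of length in the counts was not tested.

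The sequences at the summits of the 5 strongest member regions are shown first. Later searches reach up to 100 bp from the summit, so some of their matches lie outside these stretches. Each runs along the strand of the gene, from the RefSeq Release 6 genome, which has the dm6 coordinates of the peak lists, and each is centred on the IDR summit. The Trl sequence is chr3L:14759473-14759573, minus strand, in an intron. The Cp190 sequence is chr3R:15275268-15275368, minus strand, upstream of the gene. The mod(mdg4) sequence is chr3R:21365412-21365441, minus strand, where the gene has an intron and a nested pre-mod(mdg4) entry has a UTR. The M1BP sequence is chr3R:8731936-8732036, minus strand, also upstream of its gene. The Chro sequence is chr3L:22878870-22878899, minus strand, in the 5' UTR, and its capitals mark TATCG, the reverse complement of CGATA.
Trl: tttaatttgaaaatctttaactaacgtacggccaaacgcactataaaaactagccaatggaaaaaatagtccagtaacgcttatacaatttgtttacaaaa
Cp190: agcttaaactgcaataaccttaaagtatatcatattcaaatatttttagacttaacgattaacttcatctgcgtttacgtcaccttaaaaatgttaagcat
mod(mdg4): caatatgcatattttgctataatttagtaa
M1BP: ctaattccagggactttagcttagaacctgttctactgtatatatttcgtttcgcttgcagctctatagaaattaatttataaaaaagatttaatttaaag
Chro: agcTATCGacaggcaatacactcccagtaa

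Short elements near the summits are shown as a second set, because CGATA is the word bound by BEAF-32 and part of TATCGATA, the DRE bound by Dref. The word CGATA, on either strand, was searched within 100 bp of each summit, and it is in capitals in 30 bases along the strand of the gene. The CTCF stretch is chr3L:7356516-7356545, minus strand, in an intron. The Chro stretch is chr3L:22878880-22878909, minus strand. The Cp190 stretch is chr3R:15275240-15275269, minus strand. The Dref stretch is chr2L:9967230-9967259, minus strand. The pzg stretch is chr3L:21285908-21285937, plus strand.
CTCF: cgttgcgagaaatCGATAagcgccctcttc
Chro: gttagtttaaagcTATCGacaggcaataca
Cp190: atgagactgaggtTATCGcatggcTATCGa
Dref: aaatttccccagcTATCGattggtgatgca
pzg: aaataattacgtTATCGtaatgaacggcaa

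The lists differ in how they were made, which sets what their values can say. Per the list of derived data in the labels, the authors called regions in each replicate and in the pooled reads against a control and without a threshold, and each of these lists holds 30000 regions. The members had 14 IDR regions, 29 pooled regions, 22 regions of replicate 1 and 46 regions of replicate 3. In these long lists all 10 members had a region, but so did most genes: 71.8% of protein-coding genes in the pooled list, 66.2% in replicate 1 and 74.5% in replicate 3. The signal is the authors' value per region on a scale that is not stated, and ranks count from 1 for the highest signal within a list. The signal of an IDR region is that of the pooled list.

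The 14 IDR regions spanned signals from 83.9 to 950.5 with a median of 181.8, in a set that runs from 74.8 to 8385.2 with a median of 128.9. No member region reached the first 100 of the IDR set, and the best rank was 110. When as many regions were taken from the top of each replicate as the IDR set holds, 8 members had one within 500 bp of a start in replicate 1, against 9.19% of protein-coding genes. In replicate 3 the count was 5, against 11.5%, and those members were Chro, Cp190, Dref, M1BP and Trl. BEAF-32, CTCF and pzg were thus in the top of replicate 1 only, and a replicate 3 region of pzg at rank 2973 missed it by a few places. With a reciprocal overlap of at least 50%, 9 of the 14 regions (64.3%) had a partner in both replicates, against 74.4% of all IDR peaks. The summits of the 2 replicates were then a median of 19 bp apart at the members and 25 bp apart over all IDR peaks. The count of matched member regions depended on this setting. It was 13 of 14 with an overlap of any length, all but the weaker mod(mdg4) region, and 7 at a reciprocal overlap of 80%. No share over all IDR peaks is given for these 2 settings. Replicate values below are those of the region that overlaps the IDR region by any length with the nearest summit.

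**Figure D1:**
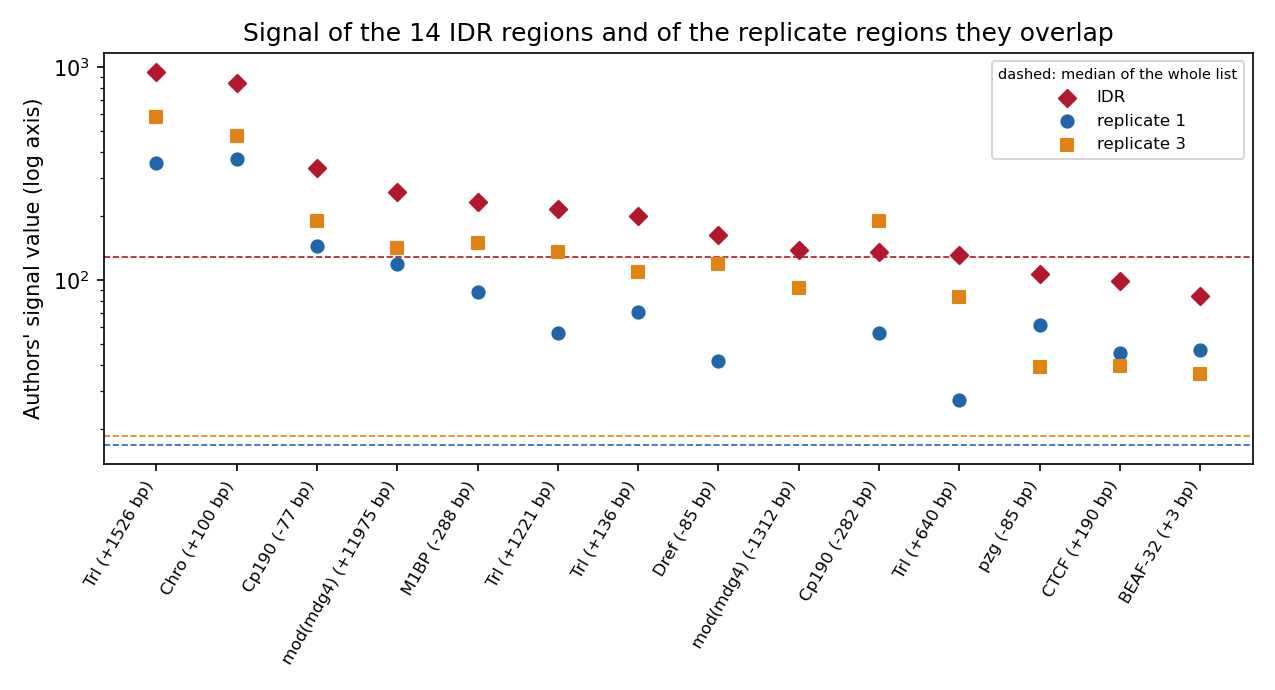
Authors' signal on a log axis for the 14 IDR regions at the members, in order of IDR signal, with the replicate 1 and replicate 3 regions that overlap them; labels give the distance of the IDR summit from the gene's nearest own start, and dashed lines are the medians of the whole lists. The Trl intron region and the Chro region stand above the rest in all 3 lists, the mod(mdg4) region 1312 bp upstream has no replicate 1 point, and the second Cp190 region shares its replicate 3 point with the first.

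Among the DNA-binding insulator proteins, peaks at the genes were weak or missing. CTCF, the fly counterpart of the vertebrate insulator protein, has 1 start, and its only IDR region (chr3L:7356331-7356714, FBgn0035769) lay 190 bp inside the gene in an intron. Its signal was 98.6 at rank 2113. The overlapping regions had a signal of 45.4 at rank 1765 in replicate 1 and of 39.3 at rank 4018 in replicate 3. Both summits were within 3 bp of each other. BEAF-32, which binds clustered CGATA words near housekeeping promoters, had the lowest IDR signal of the members, 83.9 at rank 2593 (chr2R:14771112-14771495, FBgn0015602). The summit was 3 bp from an inner start of the gene and 9 bp from the start of the antisense RNA asRNA:CR42254, and the lists do not separate the strands. Replicate 1 had a signal of 47.1 at rank 1694 there, and replicate 3 had 36.3 at rank 4538. At the most upstream start of BEAF-32 a pooled region with a signal of 57.4 at rank 4133 was not in the IDR set.

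su(Hw), a zinc finger protein that binds the gypsy insulator, was the member without an IDR region. Its pooled region, 330 bp upstream of the start, had a signal of 21.8 at rank 24691, close to the lowest signal of that list, 19.7. The authors' −log10 q-value was 0.10 for this region, against 3.24 for the IDR region of BEAF-32 and 3.65 for that of CTCF. Replicate 1 had 1 region, of 19.2 at rank 10170, 365 bp upstream. Replicate 3 had 4 regions with signals from 14.5 to 19.8, and the one nearest to the start was 38 bp upstream with a signal of 19.7. The replicate summits thus lay at different places, and all were near the median of their lists, 16.8 in replicate 1 and 18.5 in replicate 3, or below it.

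Among the cofactors, Chro and Cp190 carried the strongest start-site peaks of all members. Chro encodes Chromator, a chromodomain protein found at interbands of polytene chromosomes. Its IDR region (chr3L:22878739-22879066, FBgn0044324) had a signal of 838.3 at rank 122. The signal was 368.8 at rank 119 in replicate 1 and 475.6 at rank 121 in replicate 3, so the rank differed by a few places among the 3 lists. The summit lay 100 bp inside the gene in its 5' UTR, between 2 of its starts, and 205 bp upstream of a start of Ssl1 on the opposite strand. Ssl1 encodes a subunit of the general transcription factor TFIIH. The Chro sequences above show the only CGATA word of this region 10 bp from the summit.

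Cp190 encodes a BTB-domain protein that joins several insulator complexes. It had 2 IDR regions upstream of the gene (FBgn0000283). The stronger (chr3R:15275233-15275423) had a signal of 337.4 at rank 370, with 144.1 at rank 361 in replicate 1 and 190.2 at rank 375 in replicate 3. Its summit was 77 bp upstream of the Cp190 start. The weaker (chr3R:15275372-15275547) had a signal of 135.2 at rank 1375, 282 bp upstream of Cp190 and 1 bp inside CG4338, which is transcribed the other way. Replicate 1 had a region of its own there, of 56.7 at rank 1320. In replicate 3 it overlapped only the region of the stronger peak, whose summit was 166 bp from that of replicate 1. The Cp190 region was the only one of the 14 with a full DRE, 76 bp from the summit at the start of the gene.

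pzg encodes a zinc finger protein known as a partner of Dref and of the NURF remodeller. Its IDR region (chr3L:21285822-21286205, FBgn0259785) had a signal of 106.2 at rank 1910, 85 bp upstream of pzg and 52 bp upstream of CG12974 on the opposite strand. The signal was 61.3 at rank 1203 in replicate 1 and 39.2 at rank 4028 in replicate 3. Replicate 3 placed a second and higher region, of 48.3, at 280 bp upstream of pzg. This was also the summit with the highest GC content of the 14, 61.4% within 50 bp of the summit.

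mod(mdg4) encodes a large family of BTB-domain proteins made by trans-splicing, in which common first exons are joined to last exons transcribed from separate promoters. The annotation lists the separate transcripts as 23 pre-mod(mdg4) entries with 7 start positions inside the gene. No IDR summit lay within 500 bp of the start of mod(mdg4) itself, where replicate 3 had a region of 26.6 and replicate 1 had none. The stronger IDR region (chr3R:21365356-21365535, FBgn0002781) was 11975 bp inside the gene and had a signal of 258.2 at rank 530, with 119.2 at rank 459 in replicate 1 and 141.0 at rank 617 in replicate 3. Its summit was 62 bp inside pre-mod(mdg4)-E, 136 bp upstream of a start with 3 entries and 183 bp upstream of a plus-strand start with 7 entries. This 1 peak thus accounted for the 3 of 7 pre-mod(mdg4) start positions with an IDR summit within 500 bp. At a further start, shared by 3 entries, the pooled list had a signal of 34.1 and replicate 3 had 31.4, with no region in replicate 1.

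The weaker mod(mdg4) region (chr3R:21378521-21378904) was 1312 bp upstream of the gene, and its nearest start was that of tin, at 264 bp. tin encodes the homeodomain factor Tinman of the heart. This region had a signal of 137.8 at rank 1343, with 92.0 at rank 1161 in replicate 3 and no region in replicate 1. In all, mod(mdg4) had 1 region in replicate 1 and 11 in replicate 3, the widest gap among the members. Of the protein-coding genes, 5.52% are at least as long as mod(mdg4).

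**Figure D2:**
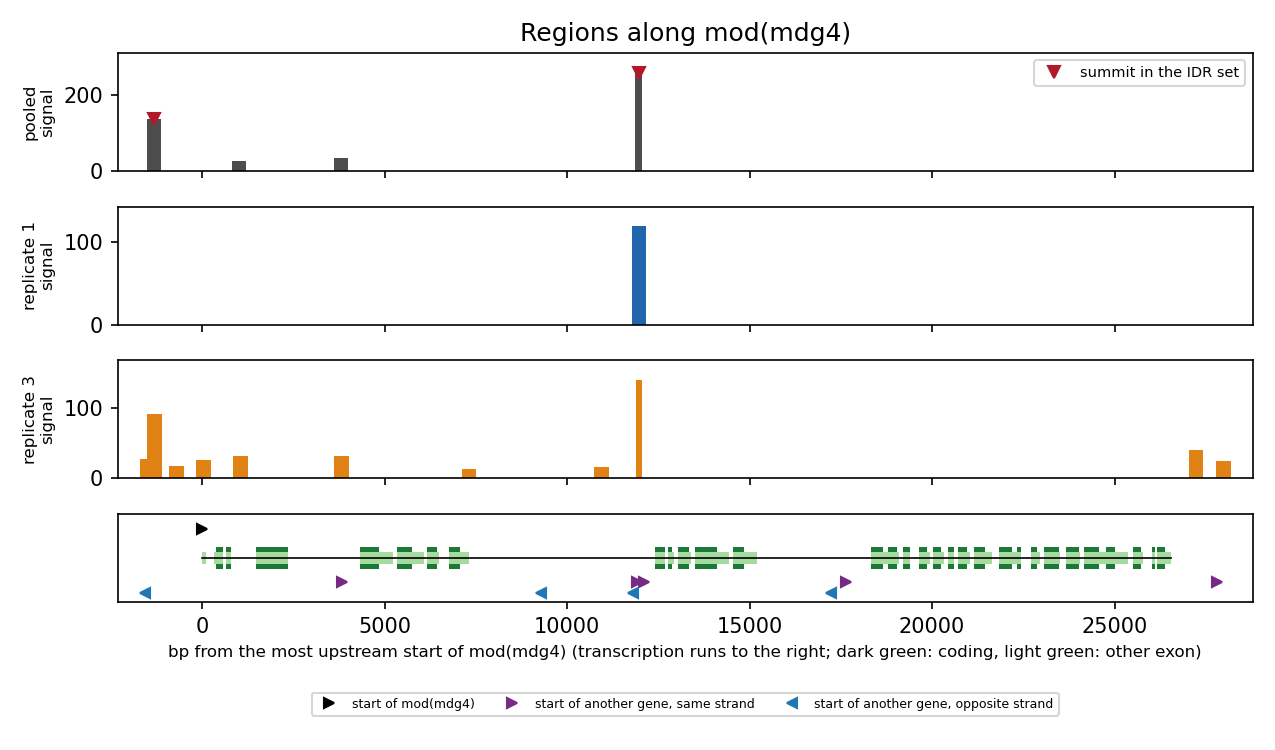
Authors' signal of the regions along mod(mdg4) in the pooled list and both replicates, against distance in bp from its start; the lowest track shows exons of all annotated isoforms, including exons reached by trans-splicing, and start positions by strand. The only region present in all lists sits at 11975 bp beside pre-mod(mdg4) starts on both strands, and the other 10 regions of replicate 3 have no counterpart in replicate 1.

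Among the promoter-binding factors, Trl had the most peaks. Trl encodes GAGA factor, which binds GAGAG words and opens chromatin at promoters. It had 4 IDR summits, a number reached by 0.823% of protein-coding genes, and 11.1% of protein-coding genes are at least as long as Trl. The highest (chr3L:14759332-14759698, FBgn0013263) was also the highest of all members, with a signal of 950.5 at rank 110. It had 354.4 at rank 129 in replicate 1 and 581.4 at rank 98 in replicate 3, and the replicate summits were 10 bp apart. The summit lay in an intron, 1526 bp downstream of the most upstream start and with no annotated start of any gene within 500 bp.

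The other Trl regions were several times weaker. The region 136 bp inside one of the inner starts, in the 5' UTR (chr3L:14757121-14757272), had a signal of 200.4, with 70.9 in replicate 1 and 109.6 in replicate 3. A region in an intron 1221 bp inside that start (chr3L:14755923-14756306) had 216.3, with 56.1 in replicate 1 and 136.0 in replicate 3. In both replicates this one was split into adjacent regions with summits on either side. The other part had 70.3 in replicate 1, above the part given, and 50.8 in replicate 3. The weakest IDR region (chr3L:14760217-14760600), 640 bp inside the most upstream start, had 130.5, with 27.2 at rank 3782 in replicate 1 and 83.4 at rank 1327 in replicate 3. A pooled region of 60.6, 295 bp upstream of the start that Trl shares with CG42507, had 45.5 in replicate 3 and no region in replicate 1.

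**Figure D3:**
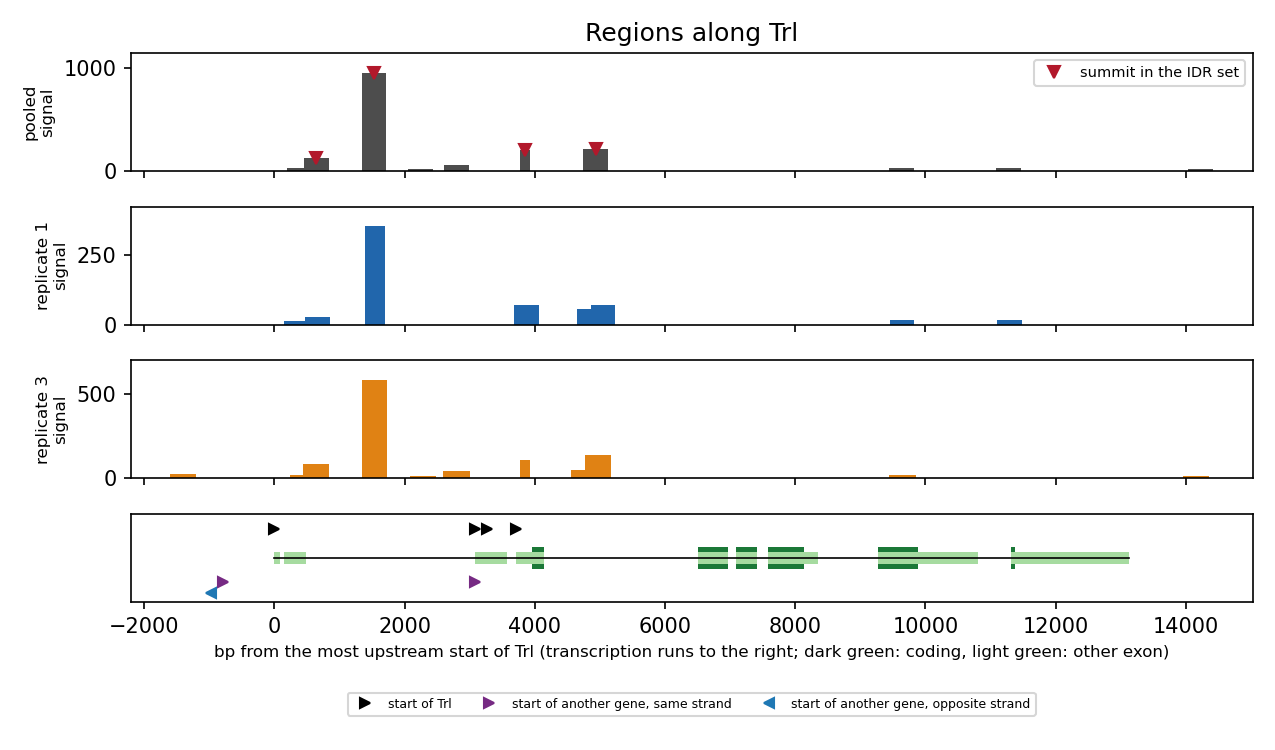
Authors' signal of the regions along Trl in the pooled list and both replicates, against distance in bp from its most upstream start, with exons and start positions in the lowest track. The region at 1526 bp is the highest in all 3 lists and lies between the first start and the inner starts.

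Dref encodes the DRE-binding factor that drives genes of replication and growth. Its IDR region (chr2L:9967122-9967505, FBgn0015664) had a signal of 163.3 at rank 1078, 85 bp upstream of Dref. The summit was 1 bp from a start of RpL13 on the opposite strand, which encodes a protein of the large ribosomal subunit. The replicates differed here, with 41.7 at rank 1962 in replicate 1 and 118.6 at rank 809 in replicate 3. M1BP, which binds the Motif 1 element of housekeeping promoters, had an IDR region (chr3R:8731934-8732101, FBgn0037621) of 231.3 at rank 624. Its summit was 288 bp upstream of M1BP and 105 bp upstream of CG8202 on the opposite strand. The signal was 88.3 at rank 708 in replicate 1 and 148.9 at rank 559 in replicate 3, and the replicate summits were 120 bp apart. For M1BP the summit fell outside a window of 250 bp around its start.

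**Figure D4:**
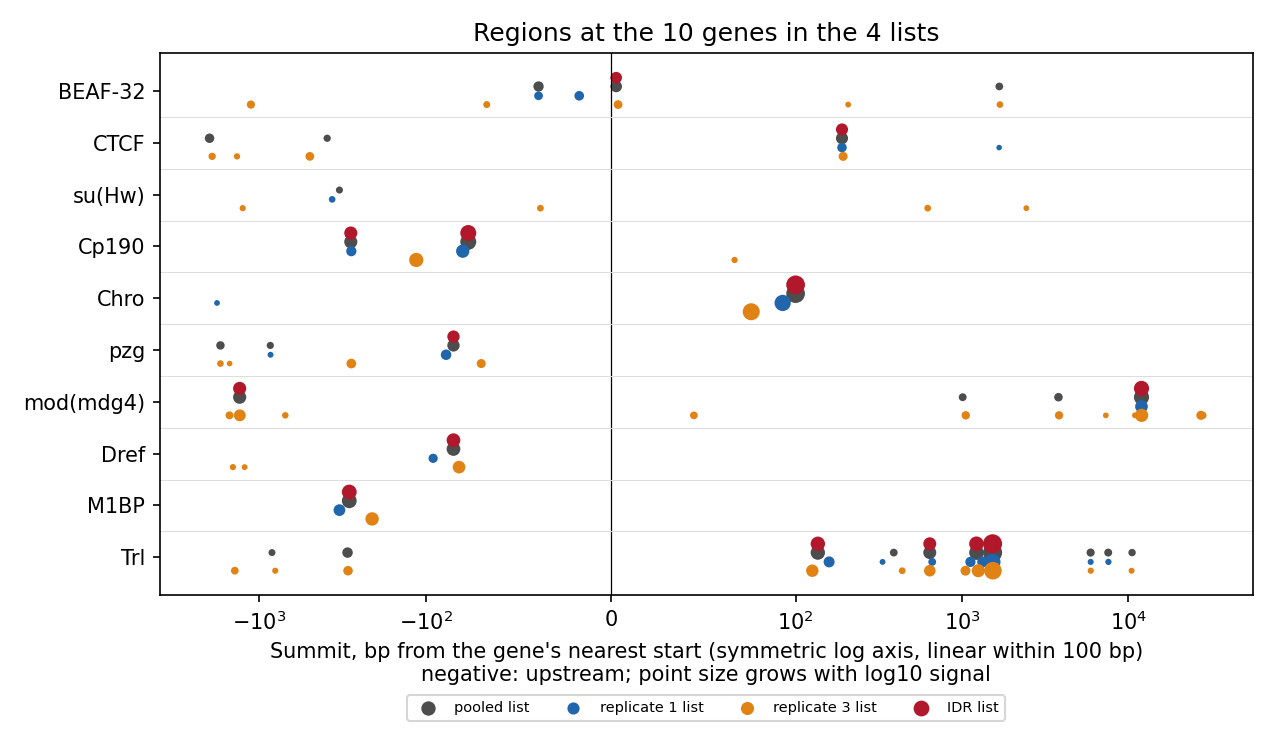
Summits of all regions at the 10 genes in the IDR, pooled, replicate 1 and replicate 3 lists, by distance in bp from the nearest start of the gene on a symmetric log axis, with point size growing with log10 of the authors' signal. Red IDR points lie within 500 bp of a start in 8 genes, and su(Hw) has none. The extra replicate 3 points of mod(mdg4) are small except the one 1310 bp upstream, with a signal of 92.0.

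Several start-site summits also lay near the start of another gene, in a share close to that of all genes with such a summit. At 5 of the 8 members with a start-site IDR summit (62.5%), a protein-coding gene on the opposite strand also had a start within 500 bp of it. Over all 1524 protein-coding genes with such a summit the share was 51.3%. The partners were Ssl1 at Chro, CG4338 at Cp190, RpL13 at Dref, CG8202 at M1BP and CG12974 at pzg. At Cp190's weaker region, Dref, M1BP and pzg the start of the partner was nearer to the summit than that of the member, so the peak cannot be assigned to one of the pair. Measured from the gene's own nearest start, the highest start-site summit was upstream in 4 of 8 members, with a median of -37 bp. Measured in the same way over the 1524 protein-coding genes with such a summit, 87.7% were upstream, with a median of -158.5 bp. BEAF-32, CTCF, Chro and Trl were the members with a summit inside the gene.

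By the order of the highest start-site IDR signal among the 1524 genes, the members were spread over nearly the whole range. Chro was at place 61, next to mRpL41 with 857.5 and mRpS10 with 812.8, both of which encode mitochondrial ribosomal proteins. Cp190 followed at place 212, M1BP at 375, Trl at 465 with its start-site region and Dref at 634. pzg was at place 1085, CTCF at 1174 and BEAF-32 at 1375, where CG15117 with 84.0 and sta with 83.9 were the neighbours. The median over all 1524 genes was 141.6, and the median of the 8 members was 181.8. The neighbours are alike in signal over the pooled list only.

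Words for known promoter elements were searched on both strands, within 100 bp of each summit and from 250 bp before to 50 after each start. CGATA overlaps the DRE TATCGATA, so the counts of these words are not separate. CGATA was in 6 of the 14 member regions, those of BEAF-32, CTCF, Chro, Cp190, Dref and pzg, and the stretches of the last 5 are printed above. All 6 were start-site regions, at 6 of the 8 members with such a region. The word was in 29.5% of IDR windows near a protein-coding start, 23.3% of all IDR windows and 21.6% of windows 500 bp away. Some of the 14 regions are away from starts, so 6 of 14 is not on the same footing as the share near starts. The DRE was in 1 member region, in 1.76% of IDR windows and in 0.59% of windows 500 bp away. GGTCACAC, the core of Motif 1, was in no member region, in 1.32% of IDR windows and in 0.61% of windows 500 bp away. GAGAG was in no member region, those of Trl included. It was in 24.2% of IDR windows and in 27.7% of windows 500 bp away, so IDR windows did not hold it more often.

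The windows at the members' own starts were searched for the same words. CGATA was found at 7 members, against 45.8% of 19627 promoter windows. TATCGATA was found at BEAF-32, CTCF, Cp190 and mod(mdg4), against 7.98% of windows. GGTCACAC was found at su(Hw), against 6.72%, and GAGAG at Trl, against 33.2%. A gene with several starts had several windows, so these counts of genes are not on the same footing as the shares of windows. Of the 18 windows of the members, 11 held CGATA, 5 TATCGATA, 1 GGTCACAC and 2 GAGAG. A match says that the letters are there, and no factor other than CG6654 was measured.

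The leading word of the CG6654 peaks was looked for at the members as well. ACAGTTTG, or its reverse complement, differed most between the stretch within 50 bp of IDR summits outside the members, where 5.63% of 2948 held it, and their flanks, where 0.695% did. It was in none of the 14 member regions. With up to 1 mismatch it was in 1, the strongest Trl region, against 20.2% of the other IDR peaks and 9.43% of windows 500 bp away. Within 100 bp of the summit, a distance added after seeing the data, it was in 3 with up to 1 mismatch. These were at Trl, M1BP and the weaker Cp190 region, against 29.99% of the other IDR peaks and 18.49% of windows 500 bp away. A matrix of 18 columns trained around this word on every other peak of the first 600, members left out, was then scored within 100 bp of each summit, and a match was a score of at least 12.17, the value passed by 1% of windows 500 bp away. Of 2645 other peaks outside training 9.3% matched, and none of the 14 member regions did. At shares as low as those of the exact word and the matrix, few of 14 regions would match. The absence of a match thus does not set the members apart from other IDR peaks.

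The share of matching peaks depended on rank. It was 51.7% among 149 peaks of rank 1 to 300, 12.8% from there to rank 1000 and 5.08% beyond. The strongest Trl region and the Chro region have ranks in the first of these classes, but their best scores were 6.88 and 4.02. The median best score of other peaks outside training was 13.08 in this class and 1.44 over all ranks. Trl and Chro scored higher than 83.8% and 71.3% of other IDR peaks of all ranks, most of which are weaker. Against their own rank class both scores were below the median, and no such share was computed within it. Matches of the IDR peaks of rank 1 and 3 are set beside the best Trl and Chro stretches, to show what a match looks like. The peak of rank 2, which is not shown, also scored below 12.17. For the peak nearest to the start of CG7031 (chr3R:22794072-22794101, minus strand) and that nearest to CG32264 (chr3L:3789309-3789338, plus strand), capitals mark the 18 matched bases. For Trl (chr3L:14759445-14759462, plus strand) and Chro (chr3L:22878894-22878911, plus strand), capitals mark the 11 of 18 bases that are the most frequent of their column.
CG7031: taatatATAGTTTGAGACGTACTGttccaa
CG32264: acaataGCAGTTTGAGAGGCGCCGcaagtt
Trl: AaAtTTTGgaAtaCAtTG
Chro: AtAGcTTtAaActaACTG

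**Figure D5:**
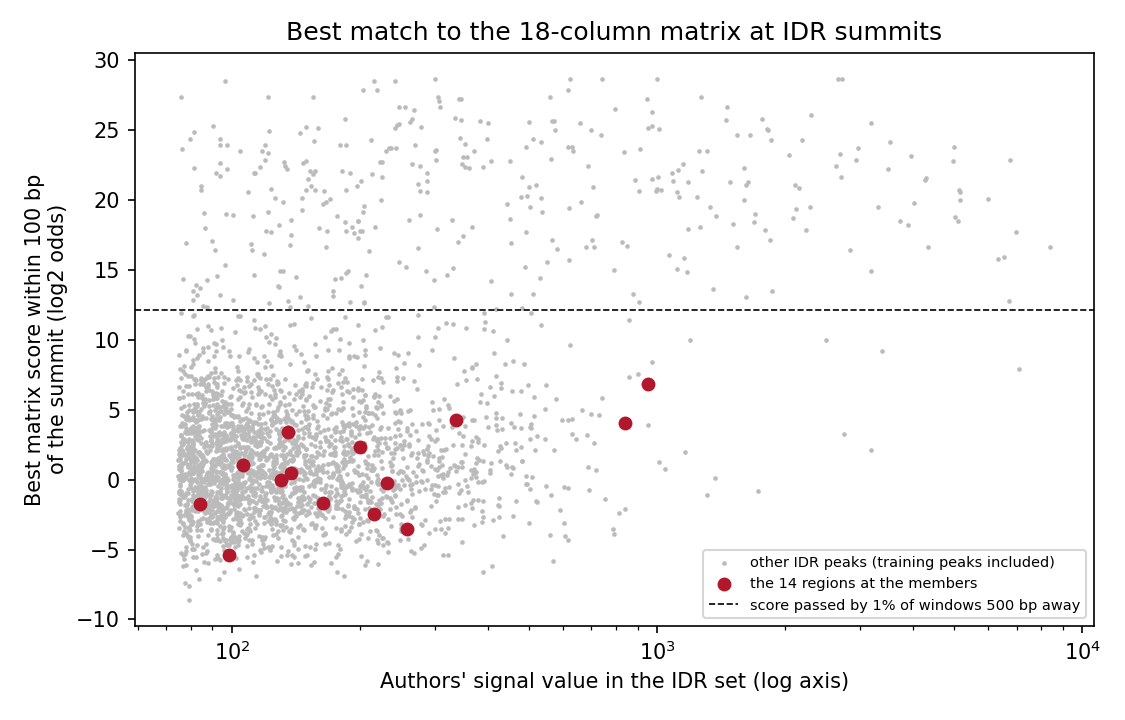
Best score of the 18-column matrix (log2 odds) within 100 bp of each IDR summit against the authors' IDR signal on a log axis, for the 14 member regions and for all other IDR peaks, training peaks included. All member regions lie below the dashed line at 12.17, the highest being Trl at 6.88, as do most other IDR peaks. Peaks of high signal are found on both sides of it.

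The member windows did not stand apart in base composition. The median GC content within 50 bp of the 14 summits was 36.1%, with a range from 21.8% to 61.4%, and the median over all IDR summits was 33.7%.

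A wider list of insulator and architectural genes places the 10 members in their class. Of 50 names 47 genes were found in the annotation, 2 of these by an older name, while Mzfp1 and SA were not matched and CG7928 is the same gene as ZIPIC. An IDR summit lay within 500 bp of a start in 13 of the 47 genes (27.7%), but 8 of the 13 were the members above. Of the 37 other genes 5 had such a summit (13.5%), close to the 10.9% of all protein-coding genes. In the gene or within 2 kb, 10 of the 37 had one (27.0%), close to the 22.9% of all protein-coding genes. By role, a start-site summit was found in 2 of 13 DNA-binding insulator proteins, 4 of 12 cofactors and 4 of 10 promoter-binding factors. It was found in 2 of 10 genes of cohesin, condensin or topoisomerase and 1 of 2 TFIIIC-like genes. In the first 3 roles all of these genes were members except shep, a cofactor, and row, a promoter-binding factor. Since the members were chosen with their peaks known, these counts do not compare the roles.

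The 5 other genes with a start-site summit had signals from 80.3 to 242.3. CG7099, listed with the TFIIIC-like genes, had 242.3, 106 bp upstream of its start. shep, which encodes an RNA-binding protein that limits insulator activity in the nervous system, had 206.4, 199 bp upstream. SMC2, a core subunit of condensin, had 104.2, with the start of Ercc1 nearer, and row, which encodes a zinc finger protein, had 99.8. Cap-H2, a subunit of condensin II, had 80.3, with the start of MED7 nearer. The highest signal within 2 kb of any gene of the wider list was 5130.8 at rank 11 in an intron of Cap-D3, a gene named after its value was seen, and the start of CG31915 was 53 bp from that summit.

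Regions of the long lists lay close to the edge of the 2 kb rule on both sides. The outermost region inside was a pooled one 1990 bp upstream of CTCF, with a signal of 44.6 at rank 5857. The nearest outside was 2002 bp from Dref in replicate 3, with a signal of 19.1 at rank 14148. The nearest IDR peak outside was 4686 bp from pzg, with a signal of 321.9, and its nearest start was that of ppl.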

How the data were processed

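Chromatin of whole embryos was immunoprecipitated and sequenced in 2 biological replicates, per the labels, after sonication to fragments of 200 to 800, with no unit stated. The signal of each region is a score as deposited by the authors, on a scale not stated, and each region also carries a −log10 q-value as deposited. Per the labels' list of derived data, the authors called regions in each replicate and in the pooled reads against a control, and derived the IDR set from them. The sources used here do not name the aligner, the caller, their versions or the IDR threshold, and the control was not analysed here. Read depth is unknown, so no interval is given. The lists on dm3 were not used.

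Summits on dm6 were placed on the genes of Ensembl release 115, and sequences were read from the RefSeq Release 6 genome, with Python 3.11.15 and NumPy 2.4.6. The members and lists were chosen with earlier results of these data known, and no test was made. Named genes are the members, genes with a start within 500 bp of a member summit, genes of the wider list with a start-site summit, and neighbours in signal of the highest and lowest member. Cap-D3 and the genes named only to place a summit or a matrix match (CG31915, Ercc1, MED7, ppl, CG7031 and CG32264) fall outside this rule and were chosen after their values were seen. Background shares cover 13968 protein-coding genes. Words of 8 bases were compared between the stretch within 50 bp of each summit and stretches 200 to 300 bp away on both sides, with member peaks left out. The matrix was trained on 296 peaks with even ranks among the first 600, of which 136 gave a hit, and was scored on other peaks. The counting and word steps were tested on simulated data. Alternatives changed the distance, start window, overlap, list length, replicate and word search.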

Additional observations from a re-analysis of the deposited data

How the results depend on the processing

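With 2 replicates and no control lists analysed, the values describe these libraries. Start-site peaks were found at 8 members. Among the upper 50% of IDR peaks by signal the count was 5, against 6.13% of protein-coding genes. Taking the top regions of a single replicate gave 5 to 8, with 5 when replicate 1 was left out, and the members lost were BEAF-32, CTCF and pzg. A start window of 250 bp left 7, against 7.95% of genes, and the most upstream start alone left 6, against 9.19%. For the wider list 13 genes had a start-site peak, and 7 did among the upper 50% of IDR peaks, against the same 6.13%. In replicate 3 the count of members with a top region was 5, and it was 9 when 10000 regions were used, against 27.1% of genes at that length. The leading word with up to 1 mismatch was in 1 member region, in 0 by exact match, in 0 by the matrix and in 3 within 100 bp of the summit, and the last of these searches and the matrix were added after seeing the data. When the leading word was chosen again within 100 bp, it changed to ATTTAAAA, which with up to 1 mismatch was in 10 of 14 member regions, in 64.5% of other IDR peaks and in 38.2% of windows 500 bp away. Leaving out the region at tin, also added later, left 9 members with an IDR region. No paired analysis was possible because there is 1 group and no comparison between groups.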
